A study of Homo sapiens with 4 samples.

Results

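Interferon-stimulated antiviral genes were examined in Huh7, an established human hepatocellular carcinoma cell line, with and without METTL16 KO. The 55 genes were listed by symbol as effectors and RNA sensors that interferons induce, without antigen presentation genes, chemokines, STATs or IRFs, and 54 of them were among the 18806 genes of the deposited table. IFI44 had no row and was not analysed here. All cells descended from 1 Huh7 clone with stable Cas9, into which a guide was brought by lentivirus, either a non-targeting guide (sgNS, 2 libraries) or a METTL16 guide (2 libraries). They were selected with hygromycin B, and which METTL16 guide these libraries carry is not given in the labels. The sample labels call the METTL16 genotype a knockdown, whereas the study calls the cells METTL16 KO. All cells were kept in DMEM with fetal bovine serum. Cas9 and the guides were both brought in by lentivirus. Beyond that, neither the labels nor the methods of these libraries name an interferon, a virus or a nucleic acid as a treatment.

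Interferons are secreted proteins that infected cells release. Type I and type III interferons bind receptors coupled to the kinases JAK1 and TYK2, which activate a complex with STAT2 and IRF9 that binds the interferon-stimulated response element (ISRE) in the promoters of target genes, while interferon gamma acts through JAK1 and JAK2 and the gamma-activated site (GAS). The products of the target genes sense viral RNA, degrade it, block its translation, or interfere with the entry and release of viruses. Hepatocytes respond to both type I and type III interferons, and hepatoma lines such as Huh7 are widely used to grow hepatitis C virus.

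The promoters of 6 genes were picked to show ISRE matches in genes that moved differently. IFIT3, GBP1 and IFITM3 rose in METTL16 KO, IFIT1 and IFIT5 fell, and HERC5 did not pass the test. The picks do not stand for their classes. Of the promoter windows searched, 2 of 5 of lower genes held a match, those of IFIT1 and IFIT5, and 16 of 25 of higher genes. The limits of the IFIT1 and IFIT5 calls are given with their values below. Each stretch is the 160 bases before the transcription start of the RefSeq window on GRCh38.p14, 5′ to 3′ in the direction of the gene, at chr10:89392463-89392622, chr10:89327837-89327996, chr10:89414408-89414567 and chr4:88456959-88457118 on the plus strand and chr1:89065209-89065368 and chr11:320861-321020 on the minus strand. Capitals mark the ISRE matches that lie wholly inside a stretch, that is GAAA followed by 2 bases of any kind and GAAA again, on either strand.
IFIT1: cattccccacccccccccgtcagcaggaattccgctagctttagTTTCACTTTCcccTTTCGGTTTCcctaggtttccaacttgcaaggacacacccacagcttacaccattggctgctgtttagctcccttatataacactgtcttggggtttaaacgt
IFIT3: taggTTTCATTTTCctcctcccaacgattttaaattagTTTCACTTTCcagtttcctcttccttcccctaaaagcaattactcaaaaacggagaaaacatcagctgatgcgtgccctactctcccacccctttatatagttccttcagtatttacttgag
IFIT5: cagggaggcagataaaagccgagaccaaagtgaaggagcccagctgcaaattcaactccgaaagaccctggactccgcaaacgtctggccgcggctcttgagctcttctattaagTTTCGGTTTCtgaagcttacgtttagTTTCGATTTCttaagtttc
HERC5: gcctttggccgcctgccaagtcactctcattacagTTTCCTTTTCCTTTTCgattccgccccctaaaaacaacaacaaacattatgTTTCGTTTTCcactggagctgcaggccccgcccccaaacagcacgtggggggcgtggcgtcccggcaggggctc
GBP1: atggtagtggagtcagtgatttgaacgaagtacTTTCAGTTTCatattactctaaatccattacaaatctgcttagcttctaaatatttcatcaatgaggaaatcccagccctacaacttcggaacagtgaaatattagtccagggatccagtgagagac
IFITM3: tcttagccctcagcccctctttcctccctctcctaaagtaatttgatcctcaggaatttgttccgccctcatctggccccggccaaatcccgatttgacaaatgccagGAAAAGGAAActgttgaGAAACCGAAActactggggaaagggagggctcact
IFIT1, IFIT3, IFIT5 and IFITM3 each carried 2 matches in these bases, GBP1 carried 1, and HERC5 carried 3, of which 2 overlap. A further match in IFIT5 spans its start and is not capitalised.

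Values are transcripts per 1000000 (TPM), the share of a library's transcripts that falls to a gene after correction for its length, so that levels can be compared between genes. Each library summed to 1000000, and TPM keeps no read counts, so that the depth is unknown. Of the 54 genes with a row, 39 had a mean of at least 1 TPM over the 4 libraries and were tested, together with 11971 genes in all, by limma on log2(TPM + 0.1). Another 14 had a lower mean, and IFI44L was listed at 0 in all 4 libraries. A gene is called higher or lower at a Benjamini-Hochberg adjusted p under 0.05, and a change of at least 2-fold means an absolute log2 fold change (log2 FC) no smaller than 1 with an unadjusted p under 0.01. Fold changes on this scale understate the change of genes with low values. METTL16 itself was listed at 26.3 and 25.1 TPM with sgNS and 17.6 and 18.8 TPM with METTL16 KO (log2 FC -0.50, SE 0.062, limma adjusted p 2.4e-05). All 10 hepatocyte and hepatoma markers examined, such as ALB and HNF4A, were at 1 TPM or more in every library, whereas 8 of 12 markers of immune, endothelial and fibroblast cells stayed under 1 TPM in every library. Of the others CD68, a lysosomal protein, reached 8.86 TPM, PECAM1 5.14 TPM, and CD14 and PDGFRB 1.66 and 1.65 TPM. The summed TPM of the 6 immune markers was 4.52 to 5.66 in sgNS and 10.6 to 11.9 in METTL16 KO, with PTPRC, which defines leukocytes, between 0.15 and 0.48 TPM, and their part in the results was not tested. The labels give separate samples, and the study calls them biological replicates without saying how the cultures were kept apart. The p-values and standard errors rest on the spread between the 2 libraries of a group, which limma pools with that of all genes tested at like levels. Whether that spread is one between independent cultures is not known. An exact two-sided permutation test of 2 against 2 libraries cannot give a p under 0.33. The groups did not overlap, in either direction, in 87.4% of all genes tested. That share stands beside every statement below that the libraries of a gene did not overlap or lay above or below the others, which therefore sets few genes apart.

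Most of the antiviral genes that could be tested were higher in METTL16 KO. Of the 39 tested, 28 were higher (limma, adjusted p under 0.05), where 50.1% of all genes tested were, and 6 were lower, where 25.6% were. As a share of the tested antiviral genes, these were 71.8% and 15.4%. A rise of at least 2-fold was seen in 15 genes, or 38.5% of the 39, against 7.69% of all genes tested, and a fall of that size in 1, IFIT1, or 2.56%, against 3.75% of all genes. The median log2 fold change was 0.70 over the 39 genes and 0.16 over all genes tested. Every TPM value is a share of a total that is the same in each library. After median-ratio scaling, which brought the median of all genes to -0.0016, 26 genes were higher and 8 lower, where 36.4% and 36.5% of all genes were. For 6 of the 39, GBP3, IFIH1, HERC6, LGALS3BP, IFIT1 and IFI35, the mean was under 1 TPM in 1 group, so that they passed the filter through the group in which they were higher. Among the 33 with means of at least 1 TPM in both groups, 11 rose by 2-fold. No share of all genes was counted under that rule, and the 7.69% includes genes that passed the filter through 1 group. The summed TPM of all listed genes was 917 and 926 in sgNS and 1569 and 1568 in METTL16 KO, and IFITM3 held the largest part of that sum in METTL16 KO.

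**Figure D1:**
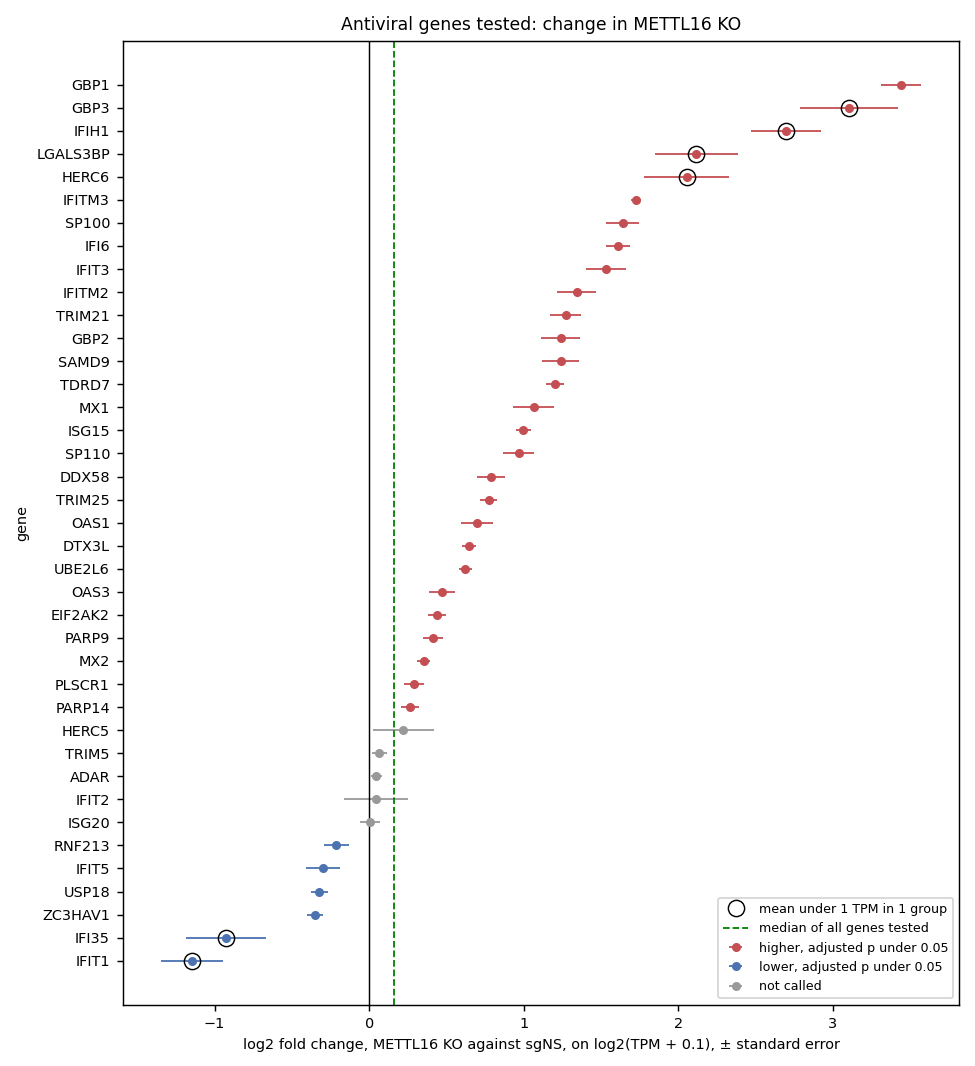
Log2 fold change of METTL16 KO against sgNS for the 39 antiviral genes tested, on log2(TPM + 0.1), with the standard error from limma as bars. Red points are higher and blue points lower at an adjusted p under 0.05, rings mark genes with a mean under 1 TPM in 1 group, and the dashed line is the median of all genes tested, 0.16; GBP1 lies at the top with 3.44 and IFIT1 at the bottom with -1.15.

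The largest rises on this scale were in GBP1 and GBP3. They encode guanylate-binding proteins, GTPases that coat intracellular pathogens and their vacuoles and that respond mainly to interferon gamma. With the MX proteins, the guanylate-binding proteins made a group of 5 GTPases. All 5 rose and 4 did so by 2-fold, where 50.1% and 7.69% of all genes tested did. Of these 4, 3 had means of at least 1 TPM in both groups. GBP1 was listed at 1.17 and 0.96 TPM with sgNS and 12.9 and 12.1 TPM with METTL16 KO. Both METTL16 KO libraries lay more than 10 TPM above the sgNS libraries, and the log2 fold change was 3.44 (SE 0.13, limma adjusted p 2.8e-09). GBP2 was listed at 3.28 and 2.75 TPM against 7.78 and 6.72 TPM (log2 FC 1.24). GBP3 was nearly silent in sgNS, at 0.17 and 0.12 TPM, and reached 2.30 and 1.73 TPM (log2 FC 3.10, SE 0.32). It passed the filter only through METTL16 KO. With a pseudocount of 1 its log2 FC was 1.39, below the 1.72 of IFITM3. In sgNS the most abundant of the 3 was GBP2, and in METTL16 KO it was GBP1. The log2 ratio of GBP1 to GBP2 within a library, which scaling by a single factor hardly moves, was -1.41 and -1.43 in sgNS and 0.72 and 0.84 in METTL16 KO. The 3 genes are neighbours on chromosome 1 of GRCh38 (minus strand), between position 89006679, where GBP3 begins, and 89150456, where GBP2 ends, and similar paralogs can exchange reads. MX1 and MX2, dynamin-like GTPases that trap viral nucleocapsids, both rose. MX1, which has the broader antiviral range, was listed at 5.31 and 4.05 TPM with sgNS and 10.5 and 9.13 TPM with METTL16 KO (log2 FC 1.06). MX2, known as a restriction factor of HIV, was far more abundant, at 61.6 and 62.1 TPM against 78.7 and 79.3 TPM (log2 FC 0.35).

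The IFITM proteins sit in membranes and hinder the fusion of enveloped viruses with endosomes or the cell surface. IFITM3 was the most abundant antiviral gene in METTL16 KO, at 492 and 488 TPM against 146 and 149 TPM in sgNS. The log2 fold change was 1.73 (SE 0.032, limma adjusted p 1.5e-11), and the group means were 148 ± 2.14 and 490 ± 2.60 TPM (SD, n = 2 each), so that the difference far exceeded the spread between libraries. IFITM2 was listed at 5.34 and 6.74 TPM against 17.1 and 13.8 TPM (log2 FC 1.34). IFITM1, at 0 and 0.13 TPM with sgNS and 0.42 and 0.15 TPM in METTL16 KO, was too low to be tested. The 3 lie side by side on chromosome 11 from 303655 to 329475, and their coding sequences are close enough for reads to be shared, so that the split between IFITM2 and IFITM3 is uncertain.

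**Figure D2:**
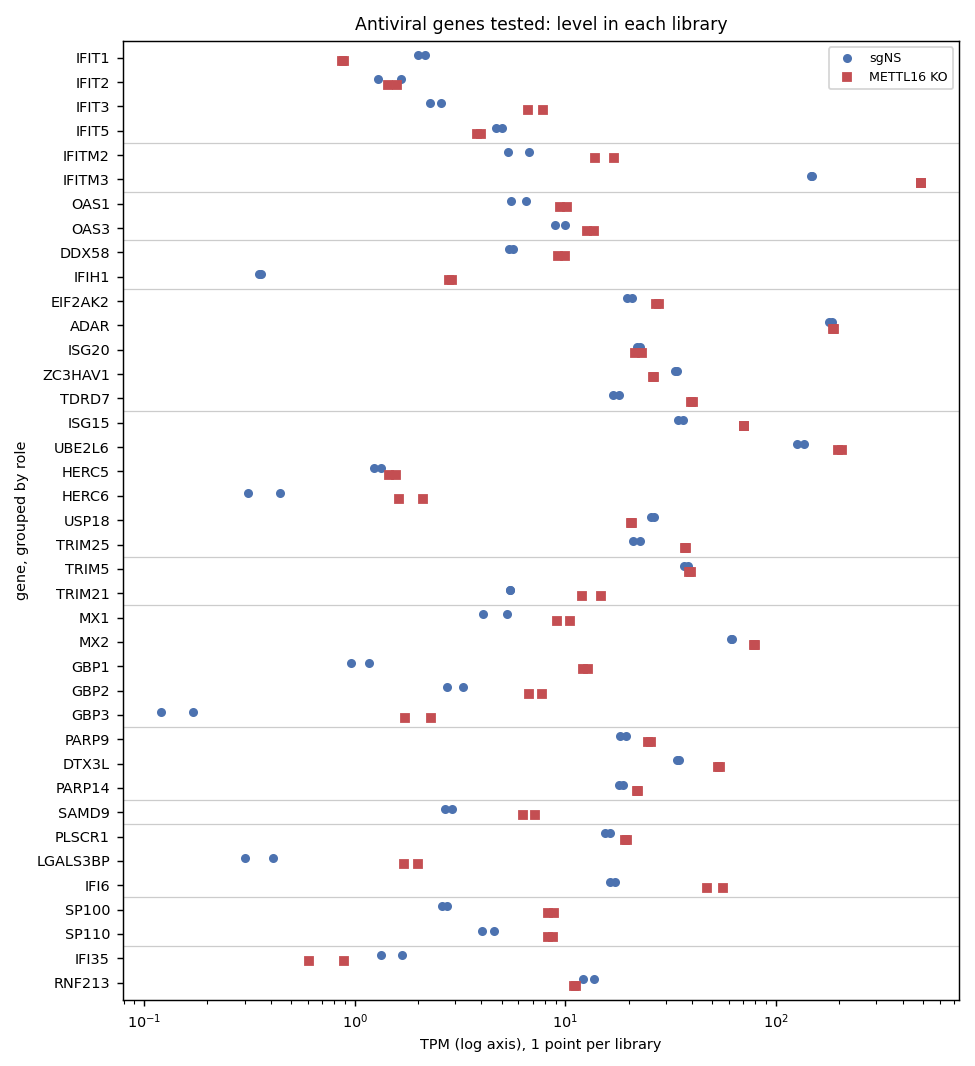
TPM of each of the 39 tested antiviral genes in each of the 4 libraries, on a log axis, grouped by role. Each point is 1 library (sgNS and METTL16 KO in separate colours); ADAR, UBE2L6 and IFITM3 lie above 100 TPM in every library, and the points of the groups cross in IFIT2 and ISG20.

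The IFIT proteins, which bind foreign RNA with particular 5′ ends and hold it back from translation, went in different directions. IFIT3, which stabilises IFIT1 in a complex, was listed at 2.29 and 2.58 TPM with sgNS and 6.65 and 7.86 TPM with METTL16 KO (log2 FC 1.53, SE 0.13, limma adjusted p 1.0e-06). IFIT1, which recognises RNA caps that lack ribose methylation, was listed at 1.99 and 2.16 TPM against 0.87 and 0.89 TPM (log2 FC -1.15, SE 0.20, limma adjusted p 3.2e-04). The groups did not overlap in either gene, but IFIT1, with a mean under 1 TPM in METTL16 KO, passed the filter only through sgNS. IFIT5, which binds uncapped RNA, was listed at 4.99 and 4.67 TPM against 3.98 and 3.83 TPM. With a log2 FC of -0.30, the limma adjusted p was 0.0305, which rose to between 0.0708 and 0.124 when sgNS replicate 1 or either METTL16 KO library was left out and to 0.0536 without the filter on low values. IFIT2 was listed at 1.66 and 1.29 TPM against 1.59 and 1.44 TPM. The libraries of IFIT2 overlapped, and its log2 fold change was 0.05 (limma adjusted p 0.85), -0.11 after median-ratio scaling and -0.34 after quantile normalization. IFIT1 and IFIT3 were thus at like levels in sgNS, with log2 ratios of IFIT3 to IFIT1 of 0.19 and 0.25, and far apart in METTL16 KO, with ratios of 2.80 and 3.01. The 4 genes lie in a row on the plus strand of chromosome 10 of GRCh38, IFIT2 from 89283694 to 89309271, IFIT3 from 89327307 to 89377473, IFIT1 from 89392546 to 89406487 and IFIT5 from 89414568 to 89421605. Both ISRE matches of IFIT1 and both of IFIT3 in the stretches shown above lie between 94 and 156 bases before the start.

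**Figure D3:**
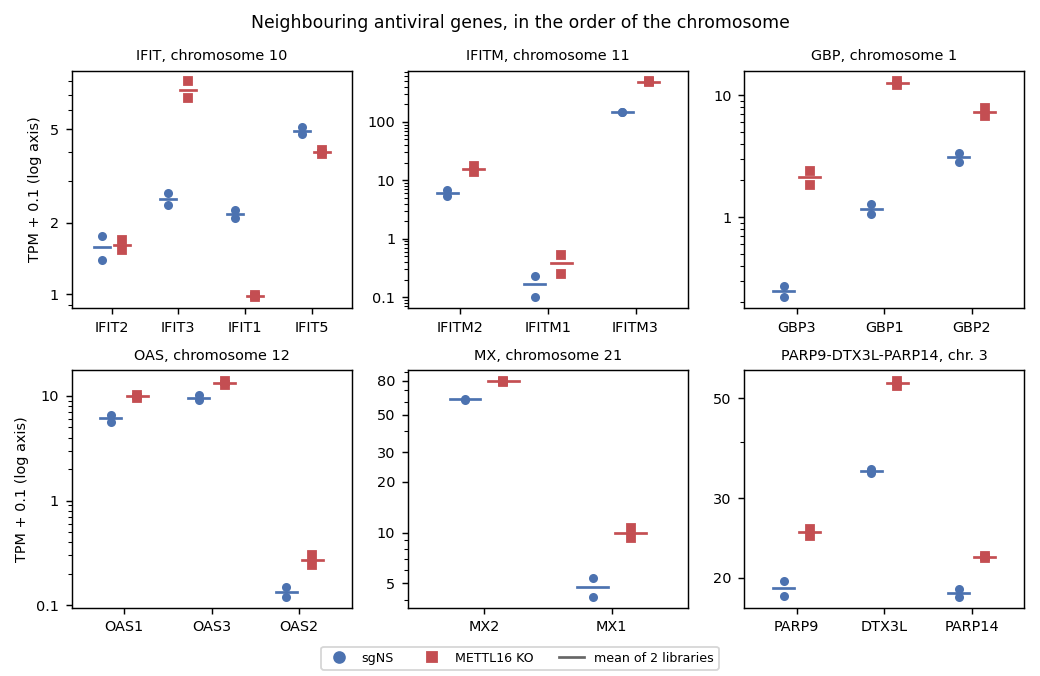
TPM + 0.1 of neighbouring antiviral genes in each of the 4 libraries on log axes, 1 panel each for the IFIT, IFITM, GBP, OAS and MX genes and for PARP9, DTX3L and PARP14, in their order on the chromosome. Circles are sgNS libraries, squares METTL16 KO libraries and bars the mean of 2 libraries; IFIT1 and IFIT5 are lower and IFIT3 higher in METTL16 KO, whereas in the other panels the METTL16 KO libraries of each gene lie above those of sgNS.

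The 2',5'-oligoadenylate synthetases sense double-stranded RNA and make the second messenger that activates RNase L. OAS1 was listed at 5.53 and 6.55 TPM with sgNS and 10.2 and 9.45 TPM with METTL16 KO (log2 FC 0.70, limma adjusted p 8.7e-05). OAS3, the form most sensitive to long RNA, was listed at 10.0 and 8.98 TPM against 13.7 and 12.6 TPM (log2 FC 0.47, limma adjusted p 4.0e-04). In both genes each METTL16 KO library lay above each sgNS library. OAS2 stayed at or under 0.20 TPM in all 4 libraries, and OASL was listed at 0 except for 0.11 TPM in METTL16 KO replicate 2.

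Both cytoplasmic RNA helicase sensors that could be tested rose, where 50.1% of all genes tested were higher. IFIH1 passed the filter only through METTL16 KO, since its mean was under 1 TPM in sgNS. IFIH1 encodes MDA5, the sensor of long double-stranded RNA, and was listed at 0.35 and 0.36 TPM with sgNS and 2.90 and 2.80 TPM with METTL16 KO. The log2 FC was 2.70 (SE 0.23, limma adjusted p 1.1e-06), and the ratio of the means was 8.03. DDX58, now named RIGI, encodes RIG-I, which binds RNA with 5′ triphosphates, and was listed at 5.67 and 5.42 TPM against 10.0 and 9.29 TPM (log2 FC 0.79, limma adjusted p 1.3e-05). DDX60, a related helicase, was listed at 0.26 and 0.27 TPM against 1.07 and 0.80 TPM, with a mean under the 1 TPM that the test required. DHX58, which encodes LGP2, did not exceed 0.08 TPM in any library.

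Among the genes that act on RNA or nucleotides, 2 of the 5 tested were higher, 1 lower and 2 did not pass the test. Of all genes tested, 50.1% were higher and 25.6% lower. TDRD7, a Tudor domain protein known to restrict autophagy that viruses use, was listed at 16.8 and 17.9 TPM with sgNS and 39.6 and 40.4 TPM with METTL16 KO (log2 FC 1.20, SE 0.058, limma adjusted p 1.5e-08). EIF2AK2, which encodes the double-stranded RNA-activated kinase PKR that halts translation, was listed at 19.8 and 20.8 TPM against 28.0 and 27.0 TPM (log2 FC 0.44, limma adjusted p 4.5e-05). The METTL16 KO libraries of both genes lay above the sgNS libraries. ZC3HAV1, which encodes ZAP, a protein that binds CpG-rich viral RNA and directs it to decay, was listed at 33.8 and 33.3 TPM against 26.6 and 26.1 TPM (log2 FC -0.35, limma adjusted p 1.0e-04). ADAR, which edits adenosines to inosines in double-stranded RNA and is also expressed without interferon, was the most abundant antiviral gene in sgNS at 185 and 179 TPM against 189 and 187 TPM with METTL16 KO. This small difference (log2 FC 0.05, limma adjusted p 0.25) became -0.12 after median-ratio scaling, where it was called lower, and -0.03 after quantile normalization, where it was not. ISG20, a 3′ to 5′ exonuclease, overlapped between the groups at 21.9 and 22.5 TPM against 21.4 and 23.2 TPM, with a log2 fold change of 0.01 that became -0.16 after median-ratio scaling and -0.17 after quantile normalization, in both of which it was called lower. RSAD2, which encodes viperin, and its neighbour CMPK2, which makes the nucleotides viperin converts, were not above 0.09 and 0.62 TPM.

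ISG15 is a ubiquitin-like protein that is joined to newly made proteins by an enzyme chain of UBE2L6 and HERC5 and removed by USP18. ISG15 was listed at 34.5 and 36.4 TPM with sgNS and 70.9 and 70.6 TPM with METTL16 KO (log2 FC 1.00, SE 0.048, limma adjusted p 1.5e-08), just under the limit for 2-fold. UBE2L6, the conjugating enzyme, was listed at 126 and 136 TPM against 197 and 206 TPM (log2 FC 0.62, limma adjusted p 3.2e-07). Neither gene's groups overlapped. HERC5, the main human ligase for ISG15, was listed at 1.23 and 1.34 TPM against 1.45 and 1.58 TPM. A log2 FC of 0.22 did not pass the test (limma adjusted p 0.33), was -0.18 after quantile normalization and passed without the mean-variance trend at an adjusted p of 0.0413. HERC6, its neighbour on chromosome 4, was listed at 0.44 and 0.31 TPM against 2.12 and 1.62 TPM (log2 FC 2.05, SE 0.28, limma adjusted p 4.8e-05). HERC6 passed the filter only through METTL16 KO. TRIM25, a ubiquitin ligase known as a cofactor of RIG-I and ZAP, was listed at 22.6 and 20.95 TPM against 37.2 and 37.3 TPM (log2 FC 0.77). USP18, which besides removing ISG15 dampens signalling from the type I interferon receptor, went the other way, from 25.5 and 26.3 TPM to 20.6 and 20.8 TPM (log2 FC -0.32, limma adjusted p 3.4e-04). USP18 shares sequence with USP41, so that its level is uncertain. The log2 ratio of ISG15 to USP18 was 0.44 and 0.47 in sgNS and 1.78 and 1.76 in METTL16 KO.

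TRIM21, a cytosolic antibody receptor and ubiquitin ligase, rose from 5.47 and 5.44 TPM to 14.8 and 12.01 TPM (log2 FC 1.27, SE 0.10, limma adjusted p 8.5e-07). TRIM5, which encodes the retroviral capsid restriction factor TRIM5 alpha, was listed at 36.6 and 38.4 TPM against 38.8 and 39.7 TPM. The log2 FC of 0.07 (limma adjusted p 0.26) became -0.10 after median-ratio scaling and -0.09 after quantile normalization. TRIM22, which lies within the annotated span of TRIM5 on the opposite strand, was at most 0.30 TPM.

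PARP9 and DTX3L, which form a complex of an inactive ADP-ribosyltransferase and a ubiquitin ligase, rose together. PARP9 was listed at 19.5 and 18.1 TPM with sgNS and 25.6 and 24.6 TPM with METTL16 KO (log2 FC 0.41, limma adjusted p 1.1e-04). DTX3L was listed at 33.9 and 34.7 TPM against 53.2 and 54.4 TPM (log2 FC 0.65, limma adjusted p 4.2e-07). The groups overlapped in neither gene. PARP9, from 122527924 to 122564577 on the minus strand of chromosome 3, and DTX3L, from 122564338 to 122575203 on the plus strand, overlap at their starts, and the strand setting of the counting is not given in the sources used here. PARP14, a mono-ADP-ribosyltransferase, was listed at 18.8 and 18.0 TPM against 22.3 and 22.0 TPM. PARP14 had a log2 FC of 0.27 (limma adjusted p 0.00189), which fell to 0.10 after median-ratio scaling and 0.08 after quantile normalization, with adjusted p of 0.141 and 0.211.

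SAMD9, a protein that blocks poxviruses and cuts translation, was listed at 2.68 and 2.90 TPM with sgNS and 7.16 and 6.30 TPM with METTL16 KO (log2 FC 1.24, limma adjusted p 3.2e-06). Its paralog SAMD9L was listed at 0 in sgNS replicates 1 and 2, against 0.09 and 0.04 TPM with METTL16 KO.

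Of the proteins at membranes or secreted, IFI6, which sits in the endoplasmic reticulum and restricts flaviviruses there, was listed at 17.3 and 16.3 TPM with sgNS and 47.3 and 55.9 TPM with METTL16 KO (log2 FC 1.61, SE 0.076, limma adjusted p 1.4e-08). LGALS3BP, a secreted galectin ligand, was listed at 0.41 and 0.30 TPM against 2.01 and 1.72 TPM (log2 FC 2.12, limma adjusted p 3.0e-05). In both genes the METTL16 KO libraries lay well above the sgNS libraries, but LGALS3BP passed the filter only through METTL16 KO. PLSCR1, a scramblase family member known to restrict viral entry, was listed at 16.3 and 15.4 TPM against 19.7 and 19.1 TPM (log2 FC 0.29, limma adjusted p 0.00159). The log2 FC of PLSCR1 fell to 0.13 after median-ratio scaling and 0.10 after quantile normalization, with adjusted p of 0.0877 and 0.155. BST2, which encodes tetherin and holds budding virions at the cell surface, was listed at 0 and 0.17 TPM against 0.44 and 0.29 TPM. IFI27, a small mitochondrial protein that is among the strongest responders to type I interferon in many cells, overlapped between the groups at 0.71 and 1.01 TPM against 0.77 and 0.84 TPM.

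The nuclear body proteins SP100 and SP110 rose. SP100, which represses the genomes of incoming DNA viruses, was listed at 2.74 and 2.60 TPM with sgNS and 8.81 and 8.28 TPM with METTL16 KO (log2 FC 1.64, SE 0.11, limma adjusted p 1.6e-07). SP110 was listed at 4.04 and 4.59 TPM against 8.33 and 8.71 TPM (log2 FC 0.97, limma adjusted p 7.0e-06). The libraries of each group lay close together in both genes. IFI16, a nuclear sensor of DNA, was listed at 0 in 1 library of each group and at 0.22 and 0.37 TPM in the others.

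Both of the remaining genes that could be tested fell, where 25.6% of all genes tested were lower. IFI35 passed the filter only through sgNS, since its mean was under 1 TPM in METTL16 KO. IFI35, a leucine zipper protein, was listed at 1.33 and 1.68 TPM with sgNS and 0.89 and 0.61 TPM with METTL16 KO (log2 FC -0.93, limma adjusted p 0.00694). Without sgNS replicate 2 its log2 FC was -0.77, with an adjusted p of 0.0715. RNF213, a giant ubiquitin ligase that coats bacteria and limits viruses, was listed at 13.7 and 12.2 TPM against 11.04 and 11.3 TPM. The RNF213 call (log2 FC -0.21, limma adjusted p 0.0303) no longer passed when sgNS replicate 1 or either METTL16 KO library was left out, with adjusted p of 0.103 to 0.19, without the filter on low values (0.0759) or without the trend (0.0511).

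The 14 antiviral genes with a mean under 1 TPM hold several that interferon usually drives most strongly, and none of them exceeded 1.07 TPM in any library. Both METTL16 KO libraries lay above both sgNS libraries in 7 of them (IFITM1, OAS2, DDX60, RSAD2, CMPK2, SAMD9L and BST2), and the libraries overlapped or touched in the other 7. Groups that do not overlap, in either direction, were seen in 87.4% of all genes tested, which had means of at least 1 TPM. No such share was counted for genes under that mean or for 1 direction alone. RSAD2 was listed at 0 in sgNS replicates 1 and 2, against 0.09 and 0.02 TPM with METTL16 KO. CMPK2 was listed at 0 and 0.07 TPM against 0.62 and 0.23 TPM. XAF1, a proapoptotic protein, was listed at 0.02 and 0 TPM against 0.26 and 0.02 TPM, and EPSTI1 did not exceed 0.03 TPM. Without the filter on low values, 3 of the 14 were higher by the same adjusted p in limma, where 39.8% of the 16350 genes then tested were.

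Matches to the ISRE were found in the promoters of antiviral genes that rose, fell or did not pass the test. RefSeq windows of 300 bases, from 250 before to 50 after a start, were found for 46 of the 55 symbols, and IFIT2, IFITM2, OAS2, OASL, DHX58, USP18, TRIM22, MX2 and GBP2 had none. The ISRE was present in 28 of the 46 windows, or 60.9%, against 3.57% of all 34796 windows. Among genes that were higher in METTL16 KO it was present in 16 of 25, among those with a 2-fold rise in 10 of 13, among those that were lower in 2 of 5 and among those not called in 3 of 4. Those not tested for low values carried it in 5 of 10. GAS, searched as TTCNNNGAA, was present in 11 of 46 windows (23.9%), against 7.67% of all windows, and the kappa B motif in 7 of 46 (15.2%), against 11.3%. Among higher genes GAS was present in 4 of 25 and among those with a 2-fold rise in 1 of 13. It was found in 2 of 5 lower genes, 0 of 4 not called and 5 of 10 not tested for low values. Both strands were searched, and matches of different motifs may overlap. A match describes letters only and no binding.

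**Figure D4:**
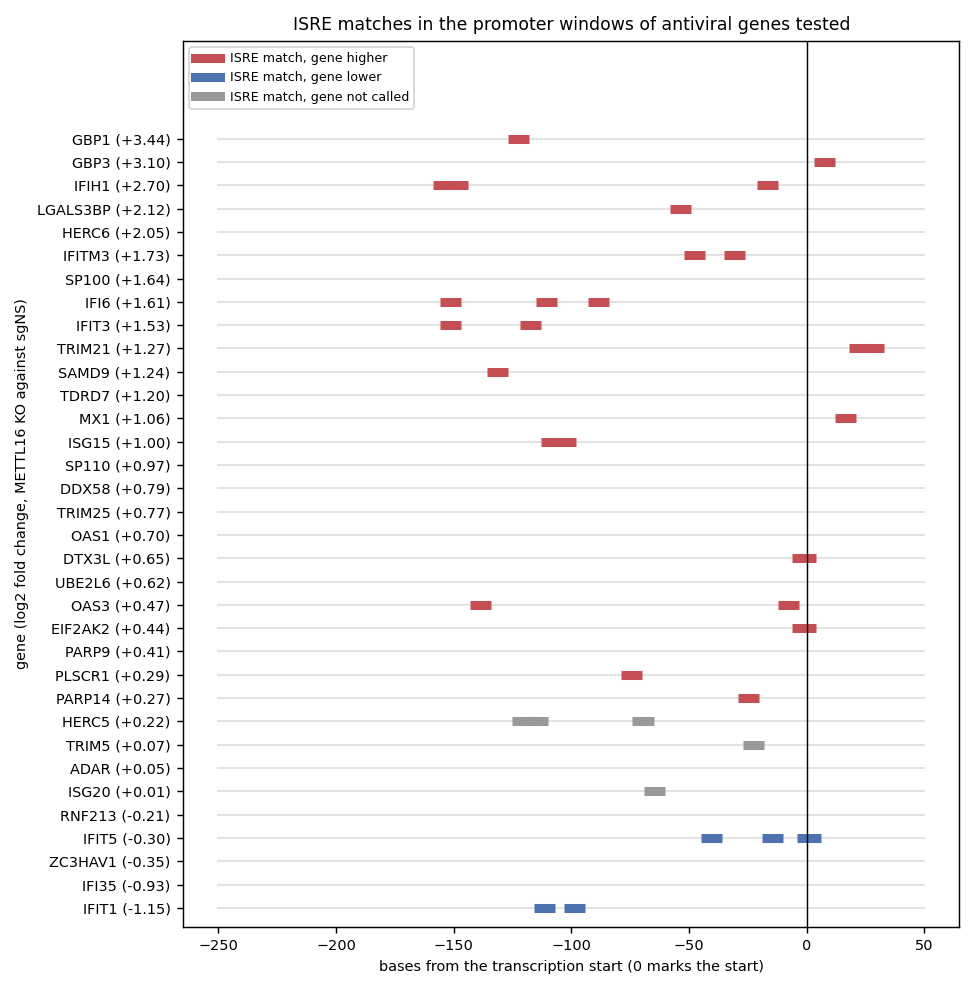
ISRE matches in the RefSeq promoter windows of the antiviral genes tested, with the distance of each match from the transcription start in bases on the x axis and 1 row per gene, coloured by the call in METTL16 KO against sgNS. Some but not all genes of each class, higher, lower and not called, hold matches upstream of the start, for example 3 in HERC5 (2 of them overlapping), which was not called. The matches of TRIM21, MX1 and GBP3 lie after the start.

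The rest of the interferon pathway was examined through 50 further genes, of which 49 had a row and IRF7 was not analysed here. No interferon reached a level that could be tested. Of 21 type I and III interferon genes, 19 were listed at 0 in all 4 libraries, as was IFNG. IFNA5 was listed at 0.16 TPM in METTL16 KO replicate 2 alone and IFNK at 0.08 TPM in METTL16 KO replicate 1 alone. Of the 27 pathway genes tested, 21 were higher and 3 lower by the adjusted p of limma (50.1% and 25.6% of all genes), and 6 rose at least 2-fold (7.69% of all genes). TLR3, TMEM173 and MB21D1 had a mean under 1 TPM in sgNS and passed the filter through METTL16 KO, where they were higher, so that 4 of the 6 genes with a 2-fold rise had means of at least 1 TPM in both groups. The 7.69% includes genes that passed the filter through 1 group, and no share was counted without them. The median log2 FC over the 27 was 0.60.

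Of the 6 receptor chains, 5 were higher and none by 2-fold, where 50.1% and 7.69% of all genes tested were. IFNAR1 and IFNAR2, the type I receptor, changed by 0.48 and 0.39 on the log2 scale, from 23.2 and 23.0 TPM to 32.4 and 32.1 TPM and from 27.3 and 26.1 TPM to 34.3 and 35.4 TPM. IFNLR1 and IL10RB, the type III receptor, changed by 0.63 and 0.60, from 9.96 and 9.86 TPM to 15.8 and 14.95 TPM and from 16.9 and 17.0 TPM to 26.1 and 25.3 TPM. The chains of the interferon gamma receptor parted. IFNGR1, which binds the ligand, rose from 45.9 and 49.5 TPM to 67.0 and 74.2 TPM (log2 FC 0.56), whereas IFNGR2 fell from 37.2 and 40.6 TPM to 31.5 and 33.8 TPM (log2 FC -0.25, limma adjusted p 0.00284, or 0.0628 without METTL16 KO replicate 1).

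JAK2, the kinase of the interferon gamma receptor and of many cytokine receptors, rose from 3.50 and 4.29 TPM to 8.23 and 8.64 TPM (log2 FC 1.10). TYK2, which serves the type I and III receptors, fell from 43.7 and 42.6 TPM to 37.0 and 33.5 TPM (log2 FC -0.29, limma adjusted p 8.0e-04). Of the subunits of the complex that binds the ISRE, IRF9 rose and STAT2 fell. IRF9 went from 11.5 and 10.96 TPM to 17.8 and 17.4 TPM (log2 FC 0.64, limma adjusted p 7.5e-06). STAT2 went from 24.6 and 24.2 TPM to 17.2 and 17.3 TPM (log2 FC -0.50, limma adjusted p 1.5e-05). IRF1, a transcription factor that interferon gamma induces and that itself drives GBP genes, rose from 4.92 and 4.52 TPM to 16.05 and 16.6 TPM (log2 FC 1.77, SE 0.084, limma adjusted p 1.4e-08). IRF3, which induces interferon genes once phosphorylated, overlapped between the groups at 80.7 and 75.2 TPM against 74.4 and 83.2 TPM, with a log2 fold change of 0.01 that became -0.15 after median-ratio scaling, where it was called lower, and -0.12 after quantile normalization.

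Of the 8 adaptors and kinases of nucleic acid sensing, 7 rose, among them the 3 that passed the filter through METTL16 KO. Beside this count and that of the negative regulators below, 50.1% of all genes tested were higher. TLR3, the endosomal receptor for double-stranded RNA, was listed at 0.34 and 0.60 TPM with sgNS and 2.64 and 2.29 TPM with METTL16 KO (log2 FC 2.21, limma adjusted p 2.1e-05). Of the 6 negative regulators 5 rose, and SOCS3, a feedback inhibitor of JAK kinases at cytokine receptors, rose most, from 1.49 and 1.48 TPM to 10.7 and 11.3 TPM (log2 FC 2.81, SE 0.11, limma adjusted p 4.0e-09). SOCS1, the inhibitor more closely tied to interferon signalling, was listed at 17.8 and 17.2 TPM against 16.4 and 15.2 TPM and was not called (log2 FC -0.15, limma adjusted p 0.0673). PIAS1, counted among the 5, had a log2 FC of 0.16, close to that of the median gene, and of -0.009 after median-ratio scaling.

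**Figure D5:**
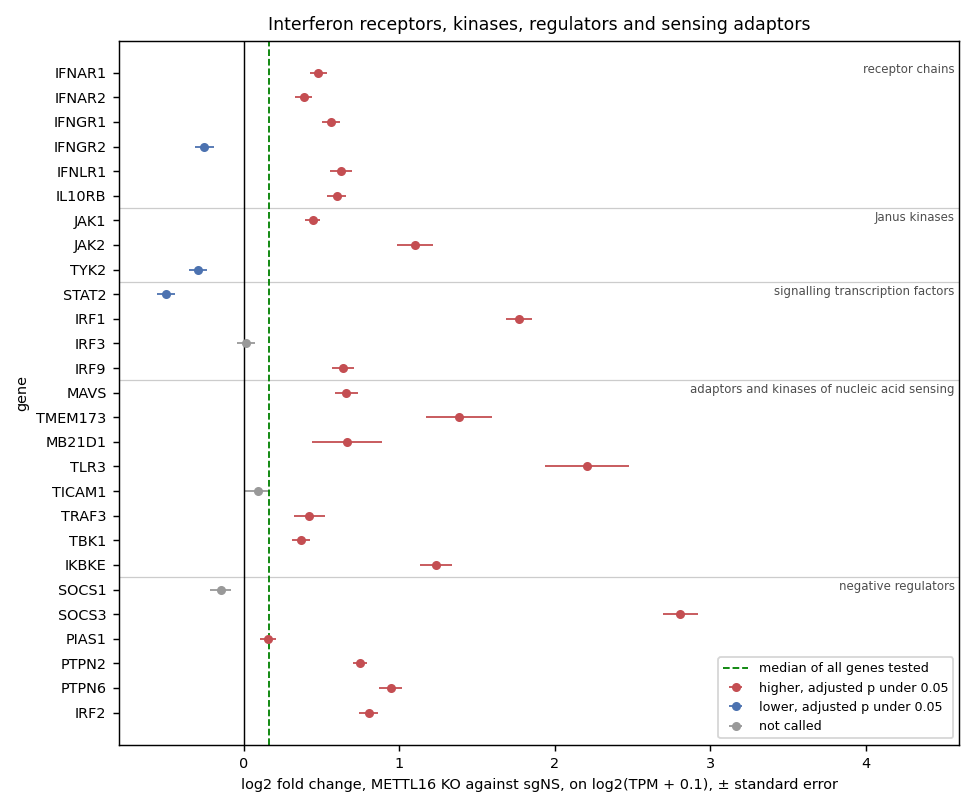
Log2 fold change of METTL16 KO against sgNS, with the standard error from limma, for the 27 tested genes of the interferon pathway, grouped as receptor chains, Janus kinases, transcription factors, adaptors and kinases of nucleic acid sensing, and negative regulators. Red is higher and blue lower at an adjusted p under 0.05; SOCS3 lies highest at 2.81 and STAT2 lowest at -0.50.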

How the data were processed

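RNA was sequenced from Huh7 Cas9 cells carrying either a non-targeting guide (2 sgNS libraries) or a guide against METTL16 (2 libraries), after stranded mRNA library preparation. The authors trimmed reads with Cutadapt, aligned them with STAR and quantified genes with RSEM. The submitters' processing notes name RSEM, STAR and GRCh38. The versions and the annotation are not given in the sources used here. The deposited values are TPM per gene symbol, rounded to 2 decimals, which sum to 1000000 in each library (the study calls them RPKM), so that they hold no depth and each gene's value depends on all others. Groups came from the sample titles.

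Genes with a mean of at least 1 TPM over the 4 libraries (11971 of 18806) were fitted with limma 3.58.1 in R 4.3.3 on log2(TPM + 0.1), with a mean-variance trend, the guide as the only term and Benjamini-Hochberg adjustment over all genes tested. The script was tested on simulated data. The second threshold (an unadjusted p under 0.01 and a 2-fold change) is the one the study shows. Named were METTL16, every antiviral gene, and of the pathway list the receptor chains, the transcription factors, the interferons above 0 and the 3 largest changes in each direction, and other genes were counted. JAK2, SOCS1 and PIAS1 were singled out after their values were seen. The antiviral genes, the pathway list and the markers were chosen with earlier results of these data known. A gene of the pathway list is not reported here. The alternatives were pseudocounts of 1 and 0.01, no filter, a minimum mean of 5 TPM, median-ratio scaling over the tested genes, quantile normalization, no trend, a replicate block, and leaving out each library. Gene positions are from GENCODE 44 on GRCh38, and promoter windows and their sequences from RefSeq on GRCh38.p14, the first listed per gene.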

Additional observations from a re-analysis of the deposited data

How the results depend on the processing

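Across the alternatives, 579 of 612 values of the 52 named genes kept their direction and their side of the threshold, 17 changed sign in 6 genes and 15 lost a call in 6 genes. METTL16 stayed lower throughout. The count of antiviral genes higher at an adjusted p under 0.05, 28, was 28 without any 1 library, and that of genes lower, 6, became 4 to 5 without 1 library and 3 at a minimum mean of 5 TPM, where fewer genes were tested. The 15 genes with a 2-fold rise, 38.5% of the 39 tested, became 9 at that minimum, or 32.1% of the 28 then tested. Of all genes, 7.69% rose by 2-fold in the main setting and 5.65% at that minimum. The single 2-fold fall became 0 with a pseudocount of 1 and at that minimum, 2 with a pseudocount of 0.01, median-ratio scaling or quantile normalization, and 1 to 2 without 1 library, with 2 when METTL16 KO replicate 1 was left out. The median log2 fold change of 0.70 became 0.63 with a pseudocount of 1, 0.53 with median-ratio scaling, 0.56 with quantile normalization and 0.63 to 0.75 without 1 library. That of all genes tested, 0.16, became 0.15, -0.0016 and 0.0097 in the first 3 of these settings. The pathway genes that were lower, 3, became 5 with median-ratio scaling, which lowers every value by about the median gene's shift. The share of all genes tested that were lower went from 25.6% to 36.5% with that scaling. With the replicate block, 28 antiviral genes were higher and 6 lower, 15 and 1 by 2-fold, and no call changed. The correlation of same-numbered libraries' deviations was -0.04 across genes, the libraries share only a number, and the block leaves 1 residual degree of freedom. The values that changed sign were, with median-ratio scaling and quantile normalization, IFIT2 (-0.11 and -0.34), ISG20 (-0.16 and -0.17), ADAR (-0.12 and -0.025), TRIM5 (-0.10 and -0.087) and IRF3 (-0.15 and -0.12), and HERC5 with quantile normalization (-0.18). Leaving out 1 library, the values ranged from -0.13 to 0.22 for IFIT2, -0.050 to 0.063 for ISG20 and -0.066 to 0.095 for IRF3. The cause of these changes was not tested beyond the scaling itself. Depth is unknown, and with 2 libraries a group, differences between guides or cultures cannot be told apart from the effect of METTL16 KO. Values under about 0.1 TPM are near the rounding step and the pseudocount.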
